A study of Mus musculus with 9 samples.

Results

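Nuclear receptors are transcription factors that bind DNA directly, and many of them are switched by a small lipid-soluble ligand. The transcripts of 37 such receptors were followed here, out of 55335 gene identifiers in the count files. The rule takes them by name from the receptor superfamily and uses no measured value, though the list was drawn up with earlier results of these data known. All 37 names matched 1 identifier each. The list covers the vitamin D, retinoid X, retinoic acid and thyroid hormone receptors (Vdr, Rxra, Rxrb, Rxrg, Rara, Rarb, Rarg, Thra, Thrb), the lipid sensors (Ppara, Ppard, Pparg, Nr1h2, Nr1h3, Nr1h4), the receptors tied to the circadian clock (Nr1d1, Nr1d2, Rora, Rorb), the steroid and oestrogen-related receptors (Esr1, Esr2, Esrra, Esrrb, Esrrg, Nr3c1, Nr3c2, Pgr) and the orphans (Hnf4a, Nr2c1, Nr2c2, Nr2f2, Nr2f6, Nr4a1, Nr4a2, Nr4a3, Nr5a2, Nr6a1).

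Mediator is the large protein complex that links DNA-bound factors to RNA polymerase II. A liganded receptor changes shape, lets go of corepressors, and binds coactivators through short leucine-rich motifs. The Mediator subunit MED1 carries such motifs and is the best-known docking point of receptors on the complex. MED4 sits with MED1 in the middle module of Mediator and was the subunit depleted in this study. In breast tissue, retinoid, vitamin D, glucocorticoid and oestrogen receptors are known for roles in growth, differentiation and hormone response.

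The study used D2A1-d cells, a mouse breast carcinoma line in which, from its title, metastatic dormancy was the subject. Cells were transduced with a non-targeting control hairpin (NTC, genotype given as WT) or with hairpin shMed4 #1 or shMed4 #4 (genotype given as Med4 Knockdown), all were grown in serum-containing medium, and all are labelled Untreated. RNA from bulk cultures was sequenced in 3 libraries per group, 9 in all. The labels call the libraries biological replicates but do not say whether they came from separate transductions, so the tests read only how far these particular libraries spread.

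The libraries held 7572114 to 8582235 reads assigned to genes. Replicate pairs differed by more than counting error, with a chi-square per degree of freedom of 1.53 to 2.95, highest for the pairs with shMed4 #1 replicate 1. Med4 itself stood at 24.98 to 29.3 CPM (reads per 1000000 in genes, scaled for library composition) in NTC, at 4.23 to 4.96 under shMed4 #1 and at 6.12 to 8.03 under shMed4 #4. Its log2 fold change was -2.59 under shMed4 #1 and -1.92 under shMed4 #4, so the labels held in all 9 libraries. Reads on mitochondrial genes made up 4.43% to 4.58% of NTC libraries, 5.51% to 6.12% under shMed4 #1 and 5.81% to 6.04% under shMed4 #4. The summed level of 6 mammary epithelial markers also moved with the groups, from 23.6 to 24.98 CPM in NTC to 93.4 to 111 under shMed4 #1 and 175 to 201 under shMed4 #4, nearly all of it from Krt8 and Krt18, with Cdh1 at 0 reads and Epcam and Krt5 at 1 read each. Summed markers of fibroblasts lay at 141 to 153, 127 to 146 and 120 to 136 CPM with no member at 0, a sum in which Pdgfra went from 128 to 76.9 and 59.9 CPM while Col1a1 went from 15.4 to 46.3 and 51.4 and Col1a2 from 4.01 to 10.9 and 17.7. Markers of other kinds were low, those of leukocytes at 15.5 to 17.02, 13.3 to 14.5 and 14.2 to 15.9 with Cd3e at 0, those of endothelium at 1.29 to 1.86, 2.73 to 3.93 and 2.07 to 3.10 with Tie1 and Emcn at 0, and those of adipocytes at or below 0.387 CPM with Lep and Cidec at 0. The part of these shifts in the receptor results was not tested.

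D2A1-d cells carried reads from 31 of the 37 receptors. No read fell on 6 of them, namely Rxrg, Esr2, Esrrg, Pgr (the progesterone receptor), Hnf4a and Nr5a2, in 73489209 reads over the 9 libraries, which allows a level of up to 0.0408 CPM by counting error. The oestrogen receptor gene Esr1 had 3 reads in all, Esrrb 1 and Rorb 4, so the receptors that define hormone-dependent breast tumours were undetected or near the limit of detection. A further 4 genes had too few reads to be tested but were present in nearly every library: Rarb with 75 reads, Nr4a3 with 57, Pparg with 31 and Nr1h4 with 29. The remaining 24 passed the low-count filter, the least covered being Rora with 99 reads, and 23 receptors reached 1 CPM in every group.

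Per kilobase of exon (RPKM, CPM per kilobase), the retinoic acid receptor gene Rarg led in NTC at 34.8 ± 2.0 RPKM (SD, n = 3). The glucocorticoid receptor gene Nr3c1 followed at 32.3 ± 1.1 RPKM, and the library ranges of the pair met. Next came Nr1d2, a haem-binding repressor of the clock, at 22.9 ± 0.33, the orphan Nr2f6 at 20.2 ± 0.39, and Rxrb, a dimer partner of many other receptors, at 17.2 ± 0.69 RPKM. Thra, Rxra, Nr1h2 and Nr1d1 lay between 12.6 and 14.0 RPKM. Below 2 RPKM in NTC were Thrb at 1.81, Nr6a1 at 1.23, Ppara at 1.11, Nr3c2 at 0.983 and Rora at 0.179 RPKM. With shMed4 #4 the distance between the leading pair had widened, Rarg standing at 40.8 and Nr3c1 at 22.5 RPKM.

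**Figure D1:**
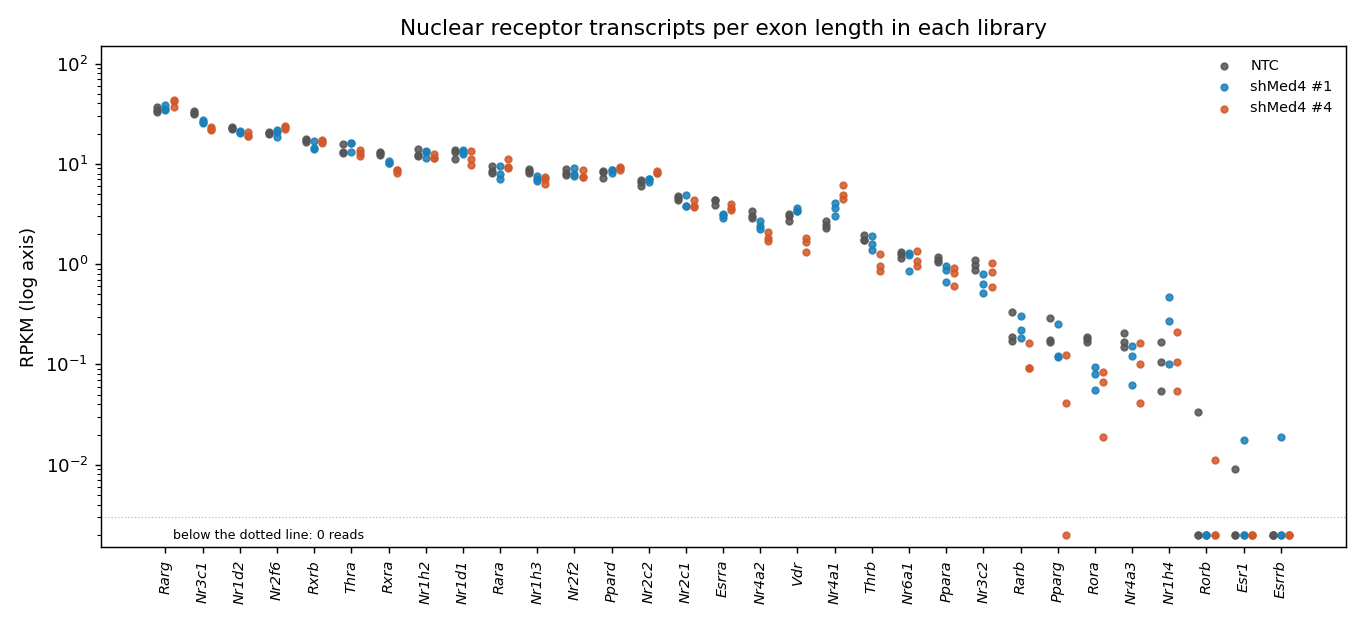
Level of each receptor with at least 1 read, in RPKM on a log axis, with 1 point per library (3 libraries for each of NTC, shMed4 #1 and shMed4 #4) and genes ordered by their NTC mean; points under the dotted line had 0 reads. Rarg and Nr3c1 lead in NTC at 34.8 and 32.3 RPKM, and the receptors fall away to Rorb, Esr1 and Esrrb, which had 4, 3 and 1 reads in all.

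In 3 families 1 member carried most of the RNA. Rarg made up 79.5% ± 0.91 of the summed RPKM of the 3 retinoic acid receptor genes in NTC, Ppard 85.9% ± 1.3 of the peroxisome proliferator-activated receptors, and Thra 88.5% ± 0.54 of the thyroid hormone receptors (SD, n = 3 for each). Other families were shared more evenly, as the retinoid X receptors between Rxra, at 42.7% ± 1.2, and Rxrb, at 57.3% ± 1.2, and the liver X receptors between Nr1h2, at 59.9% ± 3.2, and Nr1h3, at 40.1% ± 3.2. The sum over all 37 receptors was 1272 ± 27 CPM in NTC, 1200 ± 20 under shMed4 #1 and 1187 ± 9.3 under shMed4 #4, and Nr3c1 alone gave 19.5% of the NTC sum.

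With Med4 knocked down, more receptors fell than rose, mostly in small steps. Against NTC, with the knockdown taken as the mean of both hairpins, 13 of the 24 tested receptors changed (54.2%; edgeR quasi-likelihood test, adjusted p under 0.05), close to the 53.3% of all 14335 tested genes. Of these, 10 fell (41.7%, against 26.5% of all genes) and 3 rose (12.5%, against 26.8%). The fold change was negative for 18 of 24 receptors, and the median log2 fold change was -0.15 against -0.01 over all tested genes. Only Rora passed a 2-fold change, which 8.07% of all genes did while also passing the test. Rora was also the only receptor past that size with shMed4 #1 (6.4% of all genes), and Rora and Nr4a1 were past it with shMed4 #4 (11.1%).

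Both hairpins gave more falls than rises among the receptors, though with shMed4 #4 the shares lay nearer to those of all genes. With shMed4 #1, 10 receptors changed (41.7%, against 41.6% of all genes), 9 lower (37.5%, against 19.8%) and 1 higher (4.17%, against 21.8%). With shMed4 #4, 13 changed (54.2%, against 55.1%), 8 lower (33.3%, against 27.3%) and 5 higher (20.8%, against 27.8%). The 2 comparisons share the NTC libraries and are therefore set side by side and not counted as separate evidence. Rxra, Nr1h3, Nr1d2, Rora, Nr3c1 and Nr4a2 were lower and Nr4a1 was higher with each hairpin, 6 and 1 of 24 where 15.8% and 17.4% of all genes passed each test in that direction. No receptor was called in opposite directions by the hairpins. Another 8 receptors were called in none of these comparisons (Rara, Thra, Ppara, Nr1h2, Nr1d1, Nr2c1, Nr2f2 and Nr6a1), with averaged log2 fold changes from -0.46 to 0.04. In bulk RNA, fewer cells that express a gene and less RNA per cell cannot be told apart.

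**Figure D2:**
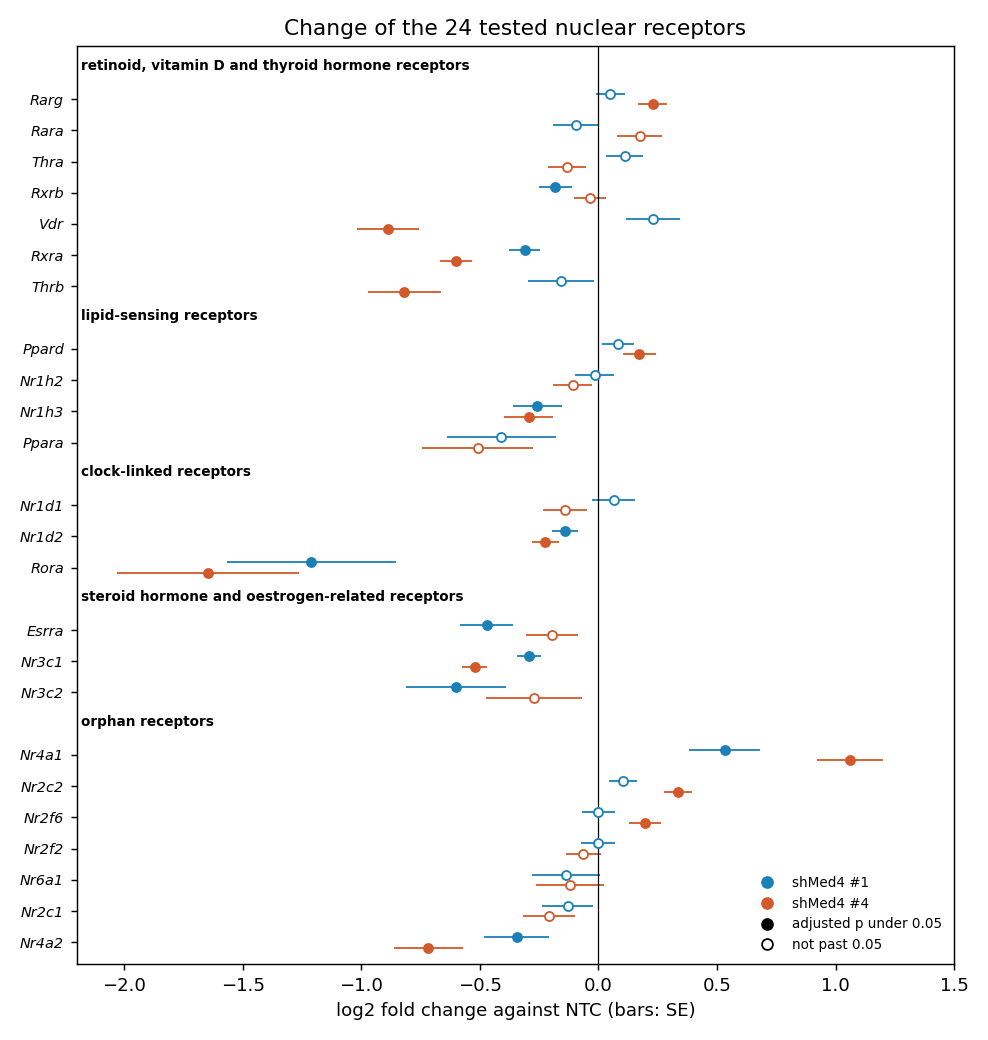
Log2 fold change against NTC of the 24 tested receptors, 1 point per hairpin (n = 3 libraries a group) with bars of 1 standard error from edgeR; filled points passed an adjusted p of 0.05 and open points did not. Rora lies farthest below 0, at -1.21 and -1.65, Nr4a1 farthest above, at 0.53 and 1.06, and Vdr lies on opposite sides of 0 with the hairpins, of which the fall with shMed4 #4 passed the test.

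Among the steroid and oestrogen-related receptors, Nr3c1 gave the most precise fall. Nr3c1 (ENSMUSG00000024431.15, chromosome 18, 39410545 to 39519421, minus strand, GRCm38), the receptor of cortisol and corticosterone, stood at 242, 258 and 245 CPM in the NTC libraries, at 212, 199 and 196 under shMed4 #1 and at 166, 173 and 179 under shMed4 #4. All libraries of shMed4 #4 lay below all of shMed4 #1, and these below all of NTC. The averaged log2 fold change was -0.41 ± 0.04 (SE; edgeR adjusted p = 6.31e-10), and the change was -0.29 with shMed4 #1 (edgeR adjusted p = 1.47e-05) and -0.52 with shMed4 #4 (edgeR adjusted p = 7.22e-11). The 50 tested genes around Nr3c1, 25 on each side, had a median averaged shift of -0.22, which leaves -0.18 for Nr3c1 relative to its neighbourhood.

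Nr3c2, the mineralocorticoid receptor gene, was far lower in level and noisier. Its values were 6.33, 5.67 and 7.10 CPM in NTC, 5.21, 4.10 and 3.35 under shMed4 #1 and 5.35, 6.69 and 3.79 under shMed4 #4. The shMed4 #1 libraries lay below NTC, while those of shMed4 #4 overlapped NTC. Its change passed the test with shMed4 #1 (log2 -0.60 ± 0.21, edgeR adjusted p = 0.0202) and for the mean of both hairpins (-0.44 ± 0.18, edgeR adjusted p = 0.0364), and was -0.27 with shMed4 #4 (edgeR adjusted p = 0.258). The averaged call ended without any one of NTC replicates 1 or 3, shMed4 #1 replicates 2 or 3 or shMed4 #4 replicate 3 (edgeR adjusted p 0.0515 to 0.165), the shMed4 #1 call ended without NTC replicate 3 or shMed4 #1 replicate 3 (edgeR adjusted p 0.0859 and 0.122), and the neighbours of Nr3c2 shifted by -0.37. DESeq2 made neither call (adjusted p = 0.0955 and 0.061).

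Esrra, an oestrogen-related receptor that binds no known steroid and is known for driving genes of mitochondrial energy production, was the third of this class to be tested. It stood at 17.3, 18.9 and 19.4 CPM in NTC, at 12.5, 13.5 and 14.0 under shMed4 #1 and at 17.3, 15.9 and 15.3 under shMed4 #4. All libraries of shMed4 #1 were lower than every other library, and the highest shMed4 #4 library just exceeded the lowest of NTC. The log2 fold change was -0.47 ± 0.11 with shMed4 #1 (edgeR adjusted p = 0.000877) and -0.20 ± 0.11 with shMed4 #4 (edgeR adjusted p = 0.127), and the difference between the hairpins, 0.27 ± 0.12, did not pass the test (edgeR adjusted p = 0.0729). Less the shift of its neighbours, the averaged change of -0.33 became -0.13.

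Among the receptors that pair with a retinoid X receptor, Vdr, the receptor of active vitamin D, separated the hairpins. Its libraries stood at 15.1, 17.01 and 18 CPM in NTC, 19.2, 19.3 and 20.3 under shMed4 #1 and 10.3, 7.43 and 9.30 under shMed4 #4. Every shMed4 #4 library was below every NTC library, and every shMed4 #1 library was above. The fall with shMed4 #4 was -0.89 ± 0.13 on the log2 scale (edgeR adjusted p = 3.9e-07), the value with shMed4 #1 was 0.23 ± 0.11 (edgeR adjusted p = 0.0995), and the hairpins differed by -1.12 ± 0.13 (edgeR adjusted p = 7.34e-09). The neighbours of Vdr rose by a median of 0.19 with shMed4 #1 and 0.39 with shMed4 #4. The shMed4 #1 value of Vdr was thus near that of its neighbours, while its fall with shMed4 #4 went against theirs. The averaged value of -0.33 (edgeR adjusted p = 0.00857) lies between the hairpins and matches neither, and its call ended without NTC replicate 3 (-0.27, edgeR adjusted p = 0.0646) or with the knockdown libraries fitted as 1 group (edgeR adjusted p = 0.552).

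Rxra, which forms heterodimers with most receptors of this class, stood at 70.2, 67.7 and 72.1 CPM in NTC, at 55.2, 55.7 and 58.5 under shMed4 #1 and at 47.1, 47.6 and 44.0 under shMed4 #4. The 3 groups did not overlap and kept the order seen for Nr3c1. The log2 fold change was -0.31 ± 0.07 with shMed4 #1 (edgeR adjusted p = 0.000177) and -0.60 ± 0.07 with shMed4 #4 (edgeR adjusted p = 1.15e-09). Less the median shift of its 50 neighbours, the averaged change of -0.46 became -0.28.

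Its relative Rxrb, in contrast, stood at 65.3 to 70.5 CPM in NTC and 64.6 to 68.5 with shMed4 #4, ranges that overlapped. With shMed4 #1 it lay at 55.9, 57.5 and 67.2 CPM, the last inside the NTC range. The shMed4 #1 value of -0.18 ± 0.07 passed the test (edgeR adjusted p = 0.033), but not without NTC replicate 2 or 3 or shMed4 #1 replicate 1 or 2 (edgeR adjusted p 0.0887 to 0.167), and not with DESeq2 (adjusted p = 0.0792). The share of Rxra in the summed RPKM of the retinoid X receptors accordingly went from 42.7% ± 1.2 in NTC to 40.6% ± 1.6 under shMed4 #1 and 33.5% ± 1.2 under shMed4 #4 (SD, n = 3).

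Of the retinoic acid receptors, Rarg was called with shMed4 #4 and not with shMed4 #1. Its libraries were at 140, 147 and 157 CPM in NTC, 149, 166 and 146 under shMed4 #1 and 180, 183 and 158 under shMed4 #4. All 3 shMed4 #4 libraries were above NTC, the lowest by a small margin. The log2 change was 0.23 ± 0.06 with shMed4 #4 (edgeR adjusted p = 0.00148), 0.05 ± 0.06 with shMed4 #1 (edgeR adjusted p = 0.544) and 0.18 ± 0.06 between the hairpins (edgeR adjusted p = 0.0223). The genes around Rarg rose more than Rarg did, by a median of 0.41 with shMed4 #4 and 0.30 on average, so that relative to them Rarg was lower, by -0.17 and -0.16. The averaged value of 0.14 passed the test (edgeR adjusted p = 0.0248) but not without any one of NTC replicates 1 or 2, shMed4 #1 replicate 2 or shMed4 #4 replicate 2 (edgeR adjusted p 0.0565 to 0.172) and not with upper-quartile scaling (edgeR adjusted p = 0.1), and the call between the hairpins ended without shMed4 #1 replicate 1 or 3 or shMed4 #4 replicate 1 or 2 (edgeR adjusted p 0.0505 to 0.125).

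Rara, the broadly expressed retinoic acid receptor, stood at 35.6 to 41.8 CPM in NTC, 30.7 to 41.3 under shMed4 #1 and 39.3 to 49.2 under shMed4 #4, and the ranges overlapped. Rarb, itself a known target of retinoic acid, had 29, 31 and 15 reads in the 3 groups and was not tested; 34.1% of its exon bases are shared with Top2b on the other strand. In a fit without a low-count filter its change with shMed4 #4 was -0.94 (edgeR adjusted p = 0.139).

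The thyroid hormone receptor genes were Thra, at 59.1 to 73.5 CPM in NTC, and the scarcer Thrb. Thrb stood at 12.9, 12.9 and 14.5 CPM in NTC, 10.2, 14.2 and 11.7 under shMed4 #1 and 7.06, 6.32 and 9.42 under shMed4 #4. All shMed4 #4 libraries lay below all others, and those of shMed4 #1 overlapped NTC. Thrb fell with shMed4 #4 by 0.82 on the log2 scale (SE 0.15, edgeR adjusted p = 2.29e-05), against -0.16 ± 0.14 with shMed4 #1 (edgeR adjusted p = 0.39), and the difference of -0.66 passed the test (edgeR adjusted p = 0.00129). Thra changed with neither hairpin by the test (0.11 and -0.13 on the log2 scale, edgeR adjusted p = 0.274 and 0.164).

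**Figure D3:**
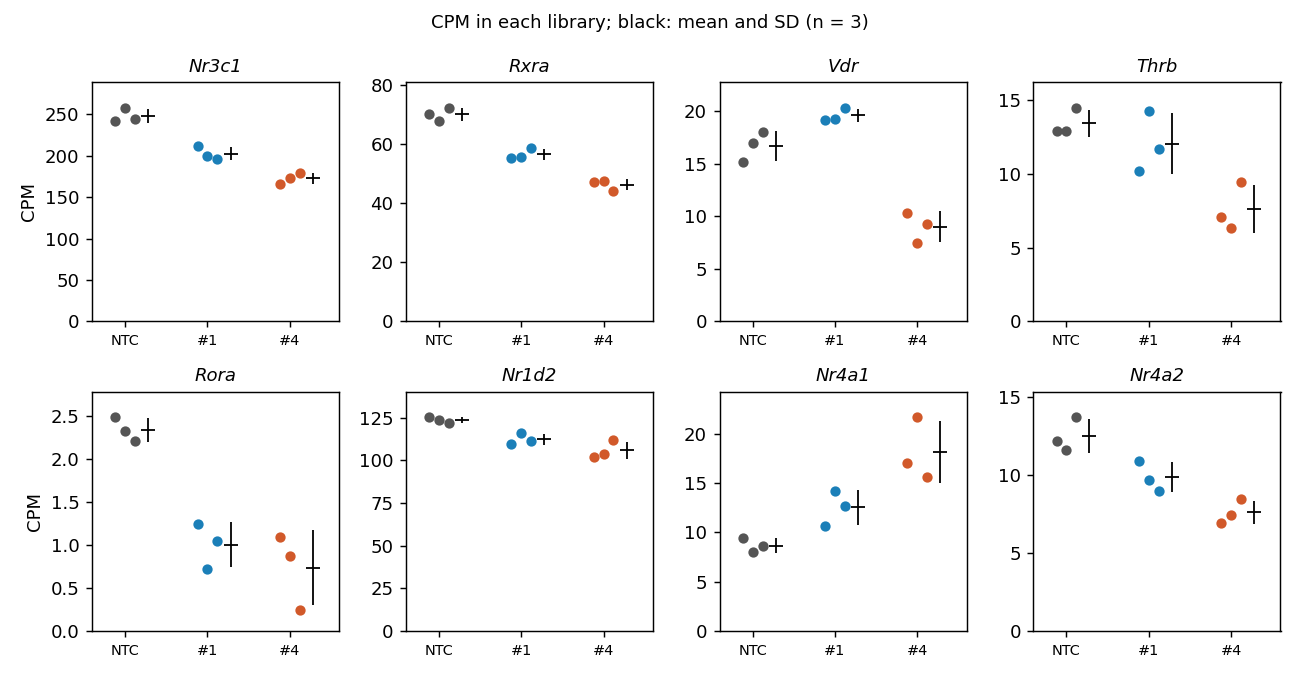
CPM of 8 receptors in each of the 9 libraries (points; NTC, shMed4 #1 and shMed4 #4 on the x axis), with the mean and SD of each group (n = 3) in black and every y axis starting at 0. Nr3c1 and Rxra step down from NTC through shMed4 #1 to shMed4 #4 without overlap, Nr4a1 steps up, and Vdr is above NTC under shMed4 #1 and below it under shMed4 #4. For Nr3c1, Rxra and Nr4a1 the order of the hairpins differs from that of Med4, which was lower with shMed4 #1.

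Of 4 lipid sensors tested, 1 was lower and 0 were higher in the averaged comparison, where 26.5% and 26.8% of all genes were. Nr1h3, the liver X receptor that binds oxysterols and is itself a target of that receptor pair, stood at 22.5, 21.3 and 20.3 CPM in NTC, 17.7, 17.02 and 18.8 under shMed4 #1 and 18.5, 16.0 and 17.7 under shMed4 #4. All 6 knockdown libraries lay below NTC, and the hairpins overlapped each other. Such a complete separation downward was seen in 7 of the 24 tested receptors and in 18.3% of all tested genes. The averaged log2 fold change was -0.27 ± 0.09 (edgeR adjusted p = 0.0094), and it missed the threshold without NTC replicate 1 (-0.24, edgeR adjusted p = 0.0589). Less the shift of its neighbours it became -0.13. Each single-hairpin call also ended without NTC replicate 1 (edgeR adjusted p = 0.141 and 0.0673), that of shMed4 #1 (-0.26) also without NTC replicate 2 or shMed4 #1 replicate 1 or 2 (edgeR adjusted p 0.0826 to 0.138), and that of shMed4 #4 (-0.29) without shMed4 #4 replicate 2 (edgeR adjusted p = 0.102). Both single-hairpin calls were lost with DESeq2 (adjusted p = 0.122 and 0.0587).

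Nr1h2, the other liver X receptor, stood at 39.8 to 47.0 CPM in NTC and between 38.1 and 44.7 CPM in the knockdown libraries, ranges that overlapped (averaged log2 change -0.06 ± 0.07, edgeR adjusted p = 0.479). Ppara, the fatty acid receptor best known from liver, was below NTC in all 6 knockdown libraries, at 3.99 to 4.53 CPM against 2.31 to 3.72, yet with few reads the averaged change of -0.46 ± 0.20 just missed the threshold (edgeR adjusted p = 0.0502). It passed with limma-voom (adjusted p = 0.045), with upper-quartile scaling (edgeR adjusted p = 0.0343) and without shMed4 #1 replicate 1 or shMed4 #4 replicate 3 (edgeR adjusted p = 0.0367 and 0.0361). Ppard, the predominant peroxisome proliferator-activated receptor here, stood at 54.8 to 63.5 CPM in NTC, 60.7 to 65.8 under shMed4 #1 and 65.3 to 70.5 under shMed4 #4. The change of Ppard with shMed4 #4, 0.17 ± 0.07, passed the test (edgeR adjusted p = 0.0294) but not without NTC replicate 1 or shMed4 #4 replicate 3 (edgeR adjusted p = 0.221 and 0.0945), with DESeq2 (adjusted p = 0.0666) or with upper-quartile scaling (edgeR adjusted p = 0.11). Less the shift of its neighbours, 0.04 of it was left.

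Pparg, the receptor that drives fat cell formation, was not tested. It had 15 reads in NTC, 12 under shMed4 #1 and 4 under shMed4 #4, and a fit without a low-count filter gave -1.82 for shMed4 #4 (edgeR adjusted p = 0.0758). The bile acid receptor gene Nr1h4 had 6, 16 and 7 reads. Neither difference was detectable at this depth.

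Rora showed the largest fold change of the 24 receptors. It codes for a factor that activates clock genes such as Arntl at the same DNA elements at which the REV-ERB proteins repress them. It had 20, 18 and 18 reads in the NTC libraries, 10, 6 and 9 under shMed4 #1 and 9, 7 and 2 under shMed4 #4. The highest knockdown library lay well below the lowest of NTC, although shMed4 #4 replicate 3 rested on 2 reads. The averaged log2 fold change was -1.43 ± 0.31 (0.371-fold, edgeR adjusted p = 0.000192), with -1.21 ± 0.36 for shMed4 #1 (edgeR adjusted p = 0.00583) and -1.65 ± 0.38 for shMed4 #4 (edgeR adjusted p = 0.000404).

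Nr1d2, the more abundant REV-ERB, stood at 125, 124 and 122 CPM in NTC, 110, 116 and 111 under shMed4 #1 and 102, 104 and 112 under shMed4 #4. All knockdown libraries were below NTC. The averaged change was -0.18 ± 0.05 (edgeR adjusted p = 0.00162) and that with shMed4 #4 was -0.22 ± 0.06 (edgeR adjusted p = 0.000848). The change with shMed4 #1, -0.14 ± 0.06, was at the threshold (edgeR adjusted p = 0.0417) and lost it without NTC replicate 1, 2 or 3 or shMed4 #1 replicate 1 or 3 (edgeR adjusted p 0.0529 to 0.113) and with DESeq2 (adjusted p = 0.0779). Less the shift of its neighbours the averaged change was -0.11.

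The second REV-ERB gene, Nr1d1, overlapped across the groups at 34.3 to 42.2 CPM in NTC, 38.7 to 42.6 under shMed4 #1 and 30.3 to 41.0 under shMed4 #4. Its averaged change was -0.04 ± 0.08 (edgeR adjusted p = 0.713). Its 3′ end shares 263 exon bases with Thra on the other strand, and without knowledge of the strand setting used in counting, reads there cannot be assigned to either gene with certainty.

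The NR4A receptors are orphans known as immediate early genes, whose transcription rises within minutes of growth factor, stress or cyclic AMP signals through CREB sites near their start. Their start regions are shown because the family holds the only receptor raised by both hairpins and a relative that went the other way. The sequences are the 250 bases before the RefSeq start (GRCm38.p6), written 5′ to 3′ on the gene's strand, with TGACG, the core of the cyclic AMP response element, or its reverse complement CGTCA, in capitals. The Nr4a1 window, chr15:101266596-101266845 on the plus strand, lies inside the annotated span of the gene (101254269 to 101274795), ahead of an internal start. The Nr4a2 window, chr2:57124004-57124253 on the minus strand, ends where the gene begins, and neither window overlaps an annotated exon.
Nr4a1: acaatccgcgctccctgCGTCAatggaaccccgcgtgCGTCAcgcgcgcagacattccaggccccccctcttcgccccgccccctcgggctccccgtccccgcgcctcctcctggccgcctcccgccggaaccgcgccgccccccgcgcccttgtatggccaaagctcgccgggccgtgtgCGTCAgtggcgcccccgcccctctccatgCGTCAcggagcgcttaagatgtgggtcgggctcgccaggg
Nr4a2: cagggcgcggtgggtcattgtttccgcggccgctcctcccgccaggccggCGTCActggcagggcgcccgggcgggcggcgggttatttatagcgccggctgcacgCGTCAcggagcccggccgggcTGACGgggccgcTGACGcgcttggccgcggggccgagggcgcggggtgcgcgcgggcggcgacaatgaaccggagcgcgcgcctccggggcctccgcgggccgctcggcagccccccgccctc

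Each window held 4 matches, starting 233, 213, 69 and 40 bases before the start in Nr4a1 and 200, 144, 123 and 111 bases before it in Nr4a2. The window of Nr4a3 held 4 as well. At least 4 matches were found in 45 of 32851 RefSeq windows of this length (0.137%), and among the 35 receptors with an entry (55 windows) only in these 3, which were singled out after the matches had been counted. At least 1 match was present in 17.8% of all windows and 21.8% of receptor windows. The full element TGACGTCA, which contains TGACG, was in no receptor window and in 1.55% of all windows. Other letters searched on both strands were CACGTG (6.02% of all and 5.45% of receptor windows), AGGTCA (14% and 18.2%), TGANTCA (6.75% and 3.64%) and CCAAT (33.8% and 36.4%). These matches describe the letters only.

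With 4 such matches in each window, Nr4a1 and Nr4a2 differed in direction. Nr4a1 had 76, 62 and 70 reads in the NTC libraries (9.43, 7.99 and 8.57 CPM), 86, 118 and 110 with shMed4 #1 (10.7, 14.2 and 12.7 CPM) and 140, 175 and 128 with shMed4 #4 (17.04, 21.7 and 15.7 CPM). Every shMed4 #4 library was above every shMed4 #1 library and every one of these above NTC, and Nr4a1 was the only tested receptor with all 6 knockdown libraries above NTC, which 19.5% of all genes showed. The log2 fold change was 0.53 ± 0.15 with shMed4 #1 (edgeR adjusted p = 0.00411) and 1.06 ± 0.14 with shMed4 #4 (edgeR adjusted p = 4.88e-08), and the difference of 0.53 ± 0.13 passed the test (edgeR adjusted p = 0.002). Its neighbours had risen too, by a median of 0.24 on average, which leaves 0.55 of the averaged 0.80.

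Nr4a2 had 98, 90 and 112 reads in the NTC libraries (12.2, 11.6 and 13.7 CPM), 88, 80 and 78 with shMed4 #1 (10.9, 9.66 and 9.004 CPM) and 57, 60 and 69 with shMed4 #4 (6.94, 7.43 and 8.44 CPM). The 3 groups did not overlap in CPM, in the reverse order of Nr4a1. The averaged log2 fold change was -0.53 ± 0.12 (edgeR adjusted p = 0.00032) and that with shMed4 #4 was -0.72 ± 0.14 (edgeR adjusted p = 6.53e-05). The change of -0.35 with shMed4 #1 (edgeR adjusted p = 0.0408) did not pass without NTC replicate 1 or 3 or shMed4 #1 replicate 2 or 3 (edgeR adjusted p 0.0596 to 0.167), and not with DESeq2 (adjusted p = 0.122).

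Reads of Nr4a1 per read of Nr4a2, a ratio free of library scaling, were 0.776, 0.689 and 0.625 in NTC, 0.977, 1.48 and 1.41 under shMed4 #1 and 2.46, 2.92 and 1.86 under shMed4 #4. The groups did not overlap. Per exon length, Nr4a1 went from 43.2% ± 2.7 of the family's RPKM in NTC to 58.3% ± 5.1 and 72.0% ± 4.8 (SD, n = 3), so that the family's main transcript changed from Nr4a2 to Nr4a1. Nr4a3, with 25, 17 and 15 reads in the groups, stayed below 4% of the family in every library and was not tested.

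Of the other orphans, Nr2c2, the testicular receptor TR4, rose with shMed4 #4. It stood at 97.5, 103 and 89.8 CPM in NTC, 106, 99.6 and 106 under shMed4 #1 and 120, 126 and 120 under shMed4 #4. The shMed4 #4 libraries lay above all others, and those of shMed4 #1 overlapped NTC. The log2 change was 0.34 ± 0.06 with shMed4 #4 (edgeR adjusted p = 7.13e-06), 0.10 ± 0.06 with shMed4 #1 (edgeR adjusted p = 0.165) and 0.23 ± 0.06 between the hairpins (edgeR adjusted p = 0.00221). Of its exon bases, 30.7% overlap Mrps25 on the other strand, a mitochondrial ribosomal protein gene that rose by 0.46 with shMed4 #4 (edgeR adjusted p = 1.11e-08), and the neighbours of Nr2c2 rose by 0.28. Its relative Nr2c1 stood at 20.1 to 21.9 CPM in NTC and 17.2 to 22.6 in the knockdown libraries (averaged log2 -0.17 ± 0.09, edgeR adjusted p = 0.134).

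Nr2f6, a relative of the COUP-TF repressors, was at 61.4, 60.6 and 59.1 CPM in NTC, 54.7, 61.7 and 64.5 under shMed4 #1 and 70.3, 66.2 and 71.3 under shMed4 #4. The shMed4 #4 libraries lay above all others. Its change of 0.20 ± 0.07 with shMed4 #4 passed the test (edgeR adjusted p = 0.0123) but not with upper-quartile scaling (0.15, edgeR adjusted p = 0.0522); 54.4% of its exon bases overlap Ocel1 on the other strand, whose own change was 0.09 (edgeR adjusted p = 0.245). Less the shift of its neighbours the change of Nr2f6 was 0.34. The difference between the hairpins (0.20, edgeR adjusted p = 0.0234) was lost without shMed4 #1 replicate 1 or shMed4 #4 replicate 1 or 3 (edgeR adjusted p 0.0545 to 0.15). Nr2f2, which encodes COUP-TFII, was nearly flat at 66.5 to 75.9 CPM in NTC and 63.9 to 78.6 in the knockdown libraries (averaged -0.03 ± 0.06, edgeR adjusted p = 0.705). Nr6a1, a repressor of pluripotency genes, overlapped across groups between 9.30 and 14.8 CPM (averaged -0.13 ± 0.12, edgeR adjusted p = 0.397).

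Set directly against each other, the hairpins differed in 10 of 24 receptors (41.7%, against 28% of all tested genes), 5 lower (20.8%, against 13.9%) and 5 higher (20.8%, against 14.2%) with shMed4 #4 than with shMed4 #1. Vdr, Thrb, Rxra, Thra and Nr3c1 were the lower ones and Nr4a1, Rara, Nr2c2, Nr2f6 and Rarg the higher ones. Vdr alone differed by more than 2-fold, which 3.34% of all genes did. Med4 itself was higher with shMed4 #4 than with shMed4 #1 (log2 0.67 ± 0.18, edgeR adjusted p = 0.00401). Nr3c1, Rxra and Nr4a1 thus changed more with the hairpin that left more Med4 RNA, and the cause was not tested. The calls of Rara (0.27) and Thra (-0.24) were lost without single libraries: Rara without shMed4 #1 replicate 1 or 2 or shMed4 #4 replicate 2 (edgeR adjusted p 0.0746 to 0.242), and Thra without shMed4 #1 replicate 2 or 3 or shMed4 #4 replicate 2 or 3 (edgeR adjusted p 0.0551 to 0.129). DESeq2 did not call Rara, Thra or Nr2f6 here (adjusted p = 0.0713, 0.0645 and 0.0605).

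Transcripts of the proteins that receptors work through were measured in the same libraries. Med1, the receptor-binding subunit, stood at 84.4 ± 5.2 CPM in NTC, 83.2 ± 6.6 under shMed4 #1 and 84.9 ± 1.4 under shMed4 #4 (SD, n = 3), with an averaged log2 change of -0.01 ± 0.06 (edgeR adjusted p = 0.921). In the averaged comparison 5 of 15 tested coactivators rose and 3 fell, and 3 of 12 corepressors rose and 8 fell (median -0.20), where 26.8% of all genes rose and 26.5% fell. Cnot1, the scaffold of a deadenylase complex, fell by 0.59, Tbl1xr1, a subunit of a histone deacetylase corepressor complex, fell by 0.58, and Sin3b, a histone deacetylase scaffold, fell by 0.41 (edgeR adjusted p = 1.55e-14, 4.55e-13 and 3e-09). Cnot1 and Sin3b are on chromosome 8 and their neighbours had shifted by -0.54 and -0.34, and those of Tbl1xr1 by -0.28.

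Genes that make, carry or break down receptor ligands were mostly too low to test. Of the 30 listed, 11 were tested, and of these 4 rose and 4 fell (26.8% and 26.5% of all genes). Cyp26b1, which breaks down retinoic acid, rose from 2.68 ± 0.93 CPM to 6.42 ± 1.4 and 7.19 ± 1.4 (averaged log2 1.34, edgeR adjusted p = 1.22e-06). Fabp5, a fatty acid and retinoid carrier, fell with shMed4 #1 (-0.48, edgeR adjusted p = 1.27e-06), while shMed4 #4 gave -0.09 (edgeR adjusted p = 0.274) and its neighbours had an averaged shift of -0.36.

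Known target genes of the receptors moved in different directions by list. Of 11 tested liver X receptor targets 8 rose and none fell in the averaged comparison (median 0.43; 26.8% of all genes rose), although Nr1h3 itself was lower. These were led by Scd2, a fatty acid desaturase, which rose from 297 ± 11 to 656 ± 59 and 697 ± 41 CPM, Arl4c (0.60), the cholesterol transporter gene Abcg1 (1.45) and the phospholipid enzyme gene Lpcat3 (0.62; edgeR adjusted p = 3.19e-21, 5.87e-14, 8.17e-10 and 1.07e-09). With shMed4 #4 alone, 7 rose and 1 fell (27.8% and 27.3% of all genes). Scd2 and others of this list are also driven by SREBP factors, and the part of either kind of factor in these rises was not tested.

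Of 7 tested retinoic acid receptor targets 4 rose and 2 fell on average (median 0.38), where 26.8% and 26.5% of all genes did. For shMed4 #1 there were 3 rises and no fall (21.8% and 19.8% of all genes). For shMed4 #4 there were 3 rises and 2 falls (27.8% and 27.3%). Cyp26b1, which stands on the ligand list too, was among those that rose, and Tgm2, a transglutaminase, fell with shMed4 #4 (-0.41, edgeR adjusted p = 6.59e-08) and gave -0.10 with shMed4 #1 (edgeR adjusted p = 0.157).

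Beside the lower Nr3c1, 7 of 11 tested glucocorticoid receptor targets fell and 3 rose on average (median -0.42), where 26.5% and 26.8% of all genes did. With shMed4 #1, 5 fell and 3 rose (median -0.15; 19.8% and 21.8% of all genes). With shMed4 #4, 7 fell and 3 rose (median -0.59; 27.3% and 27.8%). A link between these targets and the level of Nr3c1 was not tested. Lcn2, an iron-scavenging secreted protein, fell from 554 ± 32 CPM to 298 ± 44 and 137 ± 12 (averaged -1.46, edgeR adjusted p = 8.58e-23). The metallothionein genes Mt1 and Mt2 fell by 0.80 and 0.74 (edgeR adjusted p = 1.27e-15 and 5.24e-14), on a stretch of chromosome 8 whose tested genes had a median shift of -0.71. Fkbp5, a chaperone that restrains the receptor and is a standard marker of its activity, rose by 0.65 (edgeR adjusted p = 1.92e-13).

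Targets of the peroxisome proliferator-activated receptors fell in 8 and rose in 3 of 12 tested cases (median -0.32; 26.5% and 26.8% of all genes). Acadm and Acadl, which oxidise fatty acids, fell by 0.96 and 0.41, and Plin2, a lipid droplet coat, fell by 0.64, whereas the mitochondrial carrier gene Ucp2 rose by 0.86 (edgeR adjusted p = 7.7e-16, 8.1e-09, 4.69e-15 and 6.34e-16). The neighbours of Acadm had shifted by -0.40.

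Clock genes other than the receptors fell in 9 and rose in 2 of 14 cases on average (median -0.26; 26.5% and 26.8% of all genes). The hairpins gave unlike counts, 2 falls and 1 rise for shMed4 #1 (19.8% and 21.8% of all genes) and 10 falls and 3 rises for shMed4 #4 (27.3% and 27.8%). Hlf, a clock output factor, fell from 52.2 ± 5.1 CPM to 18.8 ± 0.39 and 14.5 ± 0.94 (-1.67, edgeR adjusted p = 1.75e-20). Per3 and Nfil3 fell by 0.53 and 0.40 on average (Nfil3 with shMed4 #1 -0.18, edgeR adjusted p = 0.0681), and Bhlhe40, a repressor of the clock, rose by 0.81 (edgeR adjusted p = 1.14e-06, 1.07e-05 and 1.63e-14).

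**Figure D4:**
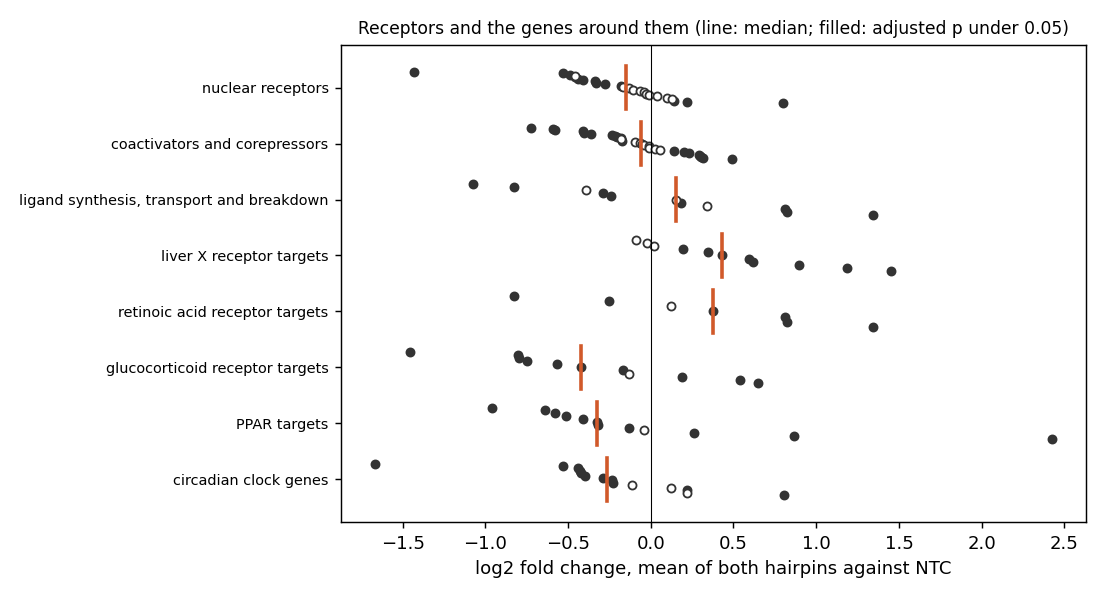
Averaged log2 fold change of both hairpins against NTC (n = 6 and 3 libraries) for each tested gene of 8 lists, 1 point per gene, filled where edgeR's adjusted p was under 0.05 and offset in height only to separate them, with the list's median as a vertical line. The receptors centre at -0.15, the liver X receptor targets at 0.43 and the glucocorticoid receptor targets at -0.42, and some genes stand on more than 1 list.

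Of 11 receptors outside the list of 37, 3 could be tested. Nr2f1, which encodes COUP-TFI, stood at 9.84 ± 2.1 CPM in NTC, 6.80 ± 0.45 under shMed4 #1 and 8.22 ± 0.61 under shMed4 #4 (SD, n = 3). Its averaged change of -0.40 passed the test (edgeR adjusted p = 0.0139), as did -0.54 with shMed4 #1 (edgeR adjusted p = 0.00747). With shMed4 #4, whose libraries overlapped NTC, it was -0.26 and did not pass (edgeR adjusted p = 0.155). The neighbours of Nr2f1 had an averaged shift of -0.26. Nr1i3 gave an averaged log2 value of -0.20 (edgeR adjusted p = 0.0673).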

How the data were processed

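Total RNA of 9 D2A1-d cultures was sequenced on a BGISEQ-500, per the labels' protocols. The authors deposited 1 table of whole-number read counts per gene for each library; the submitters' processing notes name STAR, HTSeq, mm10 and GRCm38, without versions. Which annotation release and strand option served for counting is not given in the sources used here. The files end in 5 summary lines, left out of all totals: reads outside genes made up 49.5% to 51.6%, multiply aligned reads 10.5% to 11.6% and ambiguous reads 0.863% to 0.951%.

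Of 55335 identifiers, 55154 matched a symbol in GENCODE M21, which also gave exon lengths and coordinates. Counts of all 9 libraries were fitted in 1 model of 3 groups with edgeR 4.0.16 (R 4.3.3): filterByExpr with a minimum count of 10 kept 14335 genes, TMM factors scaled the libraries, and quasi-likelihood tests were adjusted over all tested genes by Benjamini-Hochberg, with a threshold of 0.05. CPM are counts per 1000000 with TMM factors, and RPKM are CPM per kilobase of exon. With 3 libraries a group, and counts that are not independent molecules, limits for 0 reads (3 reads) cover counting error only. DESeq2 1.42.0, limma-voom (limma 3.58.1), other scalings, filters and thresholds, and fits without single libraries were alternatives. The scripts were tested on simulated counts. Promoter letters came from RefSeq.

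Every receptor on the list could be named, as could Med4, Med1 and, from each other list, up to 4 tested genes with the smallest p for the mean of both hairpins; some of the latter are not reported here. The members and lists were chosen with earlier results of these data known.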

Additional observations from a re-analysis of the deposited data

Results flagged for a closer look

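Each of these 10 receptors differed between the hairpins in the direct test of shMed4 #4 against shMed4 #1, given as the log2 difference (edgeR, adjusted p under 0.05). Lower with shMed4 #4 were Vdr at -1.12, Thrb at -0.66, Rxra at -0.29, Thra at -0.24 and Nr3c1 at -0.23. Higher with shMed4 #4 were Nr4a1 at 0.53, Rara at 0.27, Nr2c2 at 0.23, Nr2f6 at 0.20 and Rarg at 0.18. For Vdr, every shMed4 #1 library lay above NTC and every shMed4 #4 library below it, while its neighbours rose by a median of 0.19 and 0.39.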

How the results depend on the processing

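The counts of receptors changed were 13 for the mean of both hairpins, 10 for shMed4 #1, 13 for shMed4 #4 and 10 between the hairpins. With a change of at least 1.5-fold also required they were 2, 2, 6 and 2, and at an adjusted p under 0.01 they were 5 for shMed4 #1 and 6 between the hairpins. For shMed4 #1, DESeq2 gave 5 (1 higher, 4 lower) and edgeR without a low-count filter gave 6. Over all genes DESeq2 called 2642 higher and 2234 lower there, fewer than the 3132 and 2833 of the main fit. The fit without a filter called 3120 higher and 2652 lower of 28321 genes. Without single libraries the counts were 10 to 16, 7 to 8, 11 to 14 and 7 to 9. All-gene shares at the fold, 0.01 and single-library settings are not given here, so those counts describe the receptors only. Less the shift of its neighbours, Rarg reversed to -0.16 on average, -0.17 with shMed4 #4 and -0.013 between the hairpins. In the averaged comparison Rxra, Nr1d2, Rora, Esrra, Nr3c1, Nr2c2, Nr4a1 and Nr4a2 kept their calls in all 17 alternative fits, and Nr3c2 lost its call in 7 and Rarg in 6. Upper-quartile scaling gave 2 higher and 12 lower in the averaged comparison. Over all 14335 tested genes this scaling called 3355 higher and 4353 lower, where the main fit called 3848 and 3792. The cause of these differences was not tested.

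Libraries with the same replicate number in different groups did not deviate together (correlations over genes -0.059 to 0.035), and the main fit did not pair them. Deviations from means of 3 libraries hold much counting error, so these values cannot exclude that such libraries were prepared together. With the replicate block the counts were 13, 9, 13 and 10, and the call of Nr1d2 with shMed4 #1 missed the threshold (edgeR adjusted p = 0.0528). Over all genes the fit with the block called 3061 higher and 2768 lower for shMed4 #1, also fewer than the main fit. At this depth, receptors with 75 reads or fewer in all could not be tested.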
